A study of Mus musculus with 2 samples.

Results

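Tinagl1, Flrt2, Gap43, Clec14a, Cldn5, Slc6a6, Fabp4 and Cav1 are 8 of the 22401 features counted by 10x Genomics 3′ sequencing of cells from whole E11.5 mouse hearts, in 2 libraries. They were chosen because their summed level was higher in endothelial cells of the mutant library than of the control library, so that difference is given below as a description and carries no test. The control embryos had the genotype Hand2fx/+R26RmTmG/wt, that is 1 floxed Hand2 allele and no Cre. The H2CKO embryos were Nfatc1Cre/wtHand2fx/fxR26RmTmG/wt, with both Hand2 alleles floxed and Cre expressed from Nfatc1, a gene of the endocardium. All embryos also had 1 copy of mTmG, a reporter that switches from Tomato to GFP in cells where Cre acts and in their progeny. Each genotype is 1 library, and the labels do not say how many embryos, or of which sex, went into it. Embryos had been kept on ice for approximately 3 h before hearts were dissociated with TrypLE. With 1 library a genotype, every comparison of genotypes below is a difference between 2 libraries with no replicate check, and the 95% intervals cover counting error only.

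The control library held 14114 barcodes and 195825720 UMIs (counted molecules), and the H2CKO library 13885 barcodes and 201477256 UMIs. After filtering, 8793 control and 11533 H2CKO cells were kept in 20 clusters. Across the 2 libraries, 57 barcode strings were shared. Endothelial cells fell into 2 clusters, and all 20 endothelial markers had a UMI in each. The Emcn-high cluster, led by Emcn, Tm4sf1 and Plvap, held 120 control and 487 H2CKO cells. The Klf2-high cluster, led by Stmn2, Wnt4 and Klf2, held 257 and 266 cells. The 8 genes were left out of the clustering. Levels are given in CPM, the UMIs of a gene per 1000000 UMIs over all cells of that cluster and library.

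Hand2, the deleted gene, was checked first. Control Emcn-high cells held 172 CPM of it (95% interval 154 to 191), and those of H2CKO 13.03 CPM (10.4 to 16.2). In the Klf2-high cluster it stood at 256 and 7.86 CPM. Counts of 3′ ends check the label at the RNA level only. GFP went the other way, from 13.4 to 963 CPM in the Emcn-high cluster and from 17.1 to 1630.5 CPM in the Klf2-high cluster. Both genes thus matched the labels. In H2CKO, 61.0% of Emcn-high and 86.8% of Klf2-high cells had a GFP UMI, so deletion is not shown for every endothelial cell of that library and the genes are described by library.

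The endocardium is the endothelial lining of the heart. It signals to the myocardium, gives rise to valve mesenchyme and contributes to coronary vessels. Hand2 is a basic helix-loop-helix transcription factor, and such factors bind as dimers to E-boxes, whose letters are CANNTG. The 8 genes belong to no single pathway. Clec14a (a C-type lectin of endothelial cells), Cldn5 (the main claudin of endothelial tight junctions), Cav1 (the coat protein of caveolae) and Fabp4 (a fatty acid binding protein of capillary endothelium and fat cells) are known from endothelium. Flrt2 is a transmembrane ligand of Unc5 and latrophilin receptors and is known from the epicardium. Gap43 is a membrane protein of growth cones, Slc6a6 is the taurine transporter, and Tinagl1 is a secreted protein of basement membranes.

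Promoters are shown because the 8 genes were grouped by a shared difference and the deleted gene encodes a DNA-binding protein. RefSeq promoter sequences of GRCm38.p6 matched 5 of the 8 genes, in 7 entries. Gap43, Slc6a6 and Fabp4 had no entry. The bases upstream of the first listed start site are printed 5′ to 3′ on the gene's own strand for 4 genes. Capitals mark E-boxes (CANNTG, the same on both strands) and the ETS core GGAA (on either strand, so also TTCC). ETS factors bind that core and are prominent in endothelial promoters.
Flrt2, chr12:95691976-95692225, plus strand: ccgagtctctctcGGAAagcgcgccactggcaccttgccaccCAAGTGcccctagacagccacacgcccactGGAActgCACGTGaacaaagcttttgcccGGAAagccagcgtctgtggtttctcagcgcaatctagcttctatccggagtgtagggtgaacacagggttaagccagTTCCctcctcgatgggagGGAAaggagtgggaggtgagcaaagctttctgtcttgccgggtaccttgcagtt
Cav1, chr6:17306085-17306334, plus strand: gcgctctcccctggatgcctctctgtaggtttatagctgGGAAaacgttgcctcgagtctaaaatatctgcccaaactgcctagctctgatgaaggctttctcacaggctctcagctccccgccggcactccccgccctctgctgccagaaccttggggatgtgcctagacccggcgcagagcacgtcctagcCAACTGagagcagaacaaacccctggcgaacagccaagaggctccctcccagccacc
Clec14a, chr12:58269291-58269508, minus strand: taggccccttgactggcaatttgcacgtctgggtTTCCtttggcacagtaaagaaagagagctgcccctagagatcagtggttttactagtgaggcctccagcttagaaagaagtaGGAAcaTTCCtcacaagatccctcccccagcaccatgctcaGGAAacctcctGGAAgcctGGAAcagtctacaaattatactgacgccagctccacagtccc
Tinagl1, chr4:130175123-130175372, minus strand: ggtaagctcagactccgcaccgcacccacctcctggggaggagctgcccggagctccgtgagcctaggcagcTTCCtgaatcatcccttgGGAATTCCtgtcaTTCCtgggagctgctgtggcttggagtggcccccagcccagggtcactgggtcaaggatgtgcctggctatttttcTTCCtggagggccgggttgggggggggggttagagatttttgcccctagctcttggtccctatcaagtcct
Flrt2 had 2 E-boxes, CAAGTG and CACGTG, starting 208 and 171 bases before its start site. Cav1 had 1, CAACTG, starting 57 bases before. The Clec14a and Cldn5 windows had none, nor did the first listed window of Tinagl1. The second entries of Tinagl1 and Cav1, which lie inside the GENCODE gene and are not printed, had 1 E-box each. In the first listed windows the ETS core occurred 6 times for Clec14a, 5 times for Tinagl1 and Flrt2, once for Cav1 and not for Cldn5. No E-box touched an ETS core there. Among 32807 mouse promoter windows of 250 bases, 66.2% held an E-box and 93.4% an ETS core, so both are common. The E-box form CATCTG was in none of the 7 windows and in 14.5% of all windows. The Clec14a window has 218 bases, since 32 bases before its RefSeq start lie inside the GENCODE gene. A match is a run of letters and not a measured binding site.

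In the Emcn-high cluster all 8 genes were more than 2-fold higher in H2CKO, and 7 of them with each cell thinned to 5000 UMIs. The choice of genes used these values. Among 6335 genes with at least 20 CPM and 20 UMIs in the higher library, 1.45% were past 2-fold higher, meaning a log2 ratio of CPM plus 5 of at least 1. Control cells held 18.6 CPM of Tinagl1 (13.03 to 25.8), and H2CKO cells 252 CPM (239.6 to 265), for a log2 ratio of 3.44. For Flrt2 these levels were 6.72 CPM (3.58 to 11.49) against 90.4 CPM (83.1 to 98.2), and the log2 ratio was 3.03. These were the 2nd and 3rd highest ratios of the cluster, after GFP. With no doublet removal the log2 ratio of Flrt2 was 2.34, and with the median of the reference classes (cardiomyocyte-, epicardial- and mesenchymal-like) taken off it was 3.72. The growth-cone gene Gap43 had 72.4 CPM (60.9 to 85.4) against 405 CPM (389.8 to 421), with a log2 ratio of 2.41. The lectin gene Clec14a had 43.9 CPM (35.1 to 54.3) against 242 CPM (230.5 to 255), with a log2 ratio of 2.34. None of these intervals overlapped between the libraries.

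The junction gene Cldn5 had 25.3 CPM in control cells (18.7 to 33.5) against 128 CPM in H2CKO cells (119.7 to 138), and its log2 ratio was 2.14. The taurine transporter Slc6a6 had 8.79 CPM (5.12 to 14.1) against 52.4 CPM (46.9 to 58.4), and its log2 ratio was 2.06. Neither pair of intervals overlapped. The caveolar gene Cav1 had 27.9 CPM (20.96 to 36.4) against 99.9 CPM (92.3 to 108), and its log2 ratio was 1.67. Fabp4 had the smallest log2 ratio of the 8, 1.21, with 16.5 CPM (11.3 to 23.3) against 45.0 CPM (39.9 to 50.5), and ranked 59th among the features tested. With thinned cells its log2 ratio was 0.78. A few cells carried it, 5 cells holding 90.6% of its control UMIs and 5 cells 43.8% of those in H2CKO. The median log2 ratio of the 8 genes was 2.24, and that of all genes tested was -0.26. Near the 2-fold bound, Mmrn1 (log2 ratio 1.01) lay just inside and Anxa2 (0.998) just outside. With at least 100 CPM required in the higher library, 4 of the 8 remained among the genes tested.

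**Figure D1:**
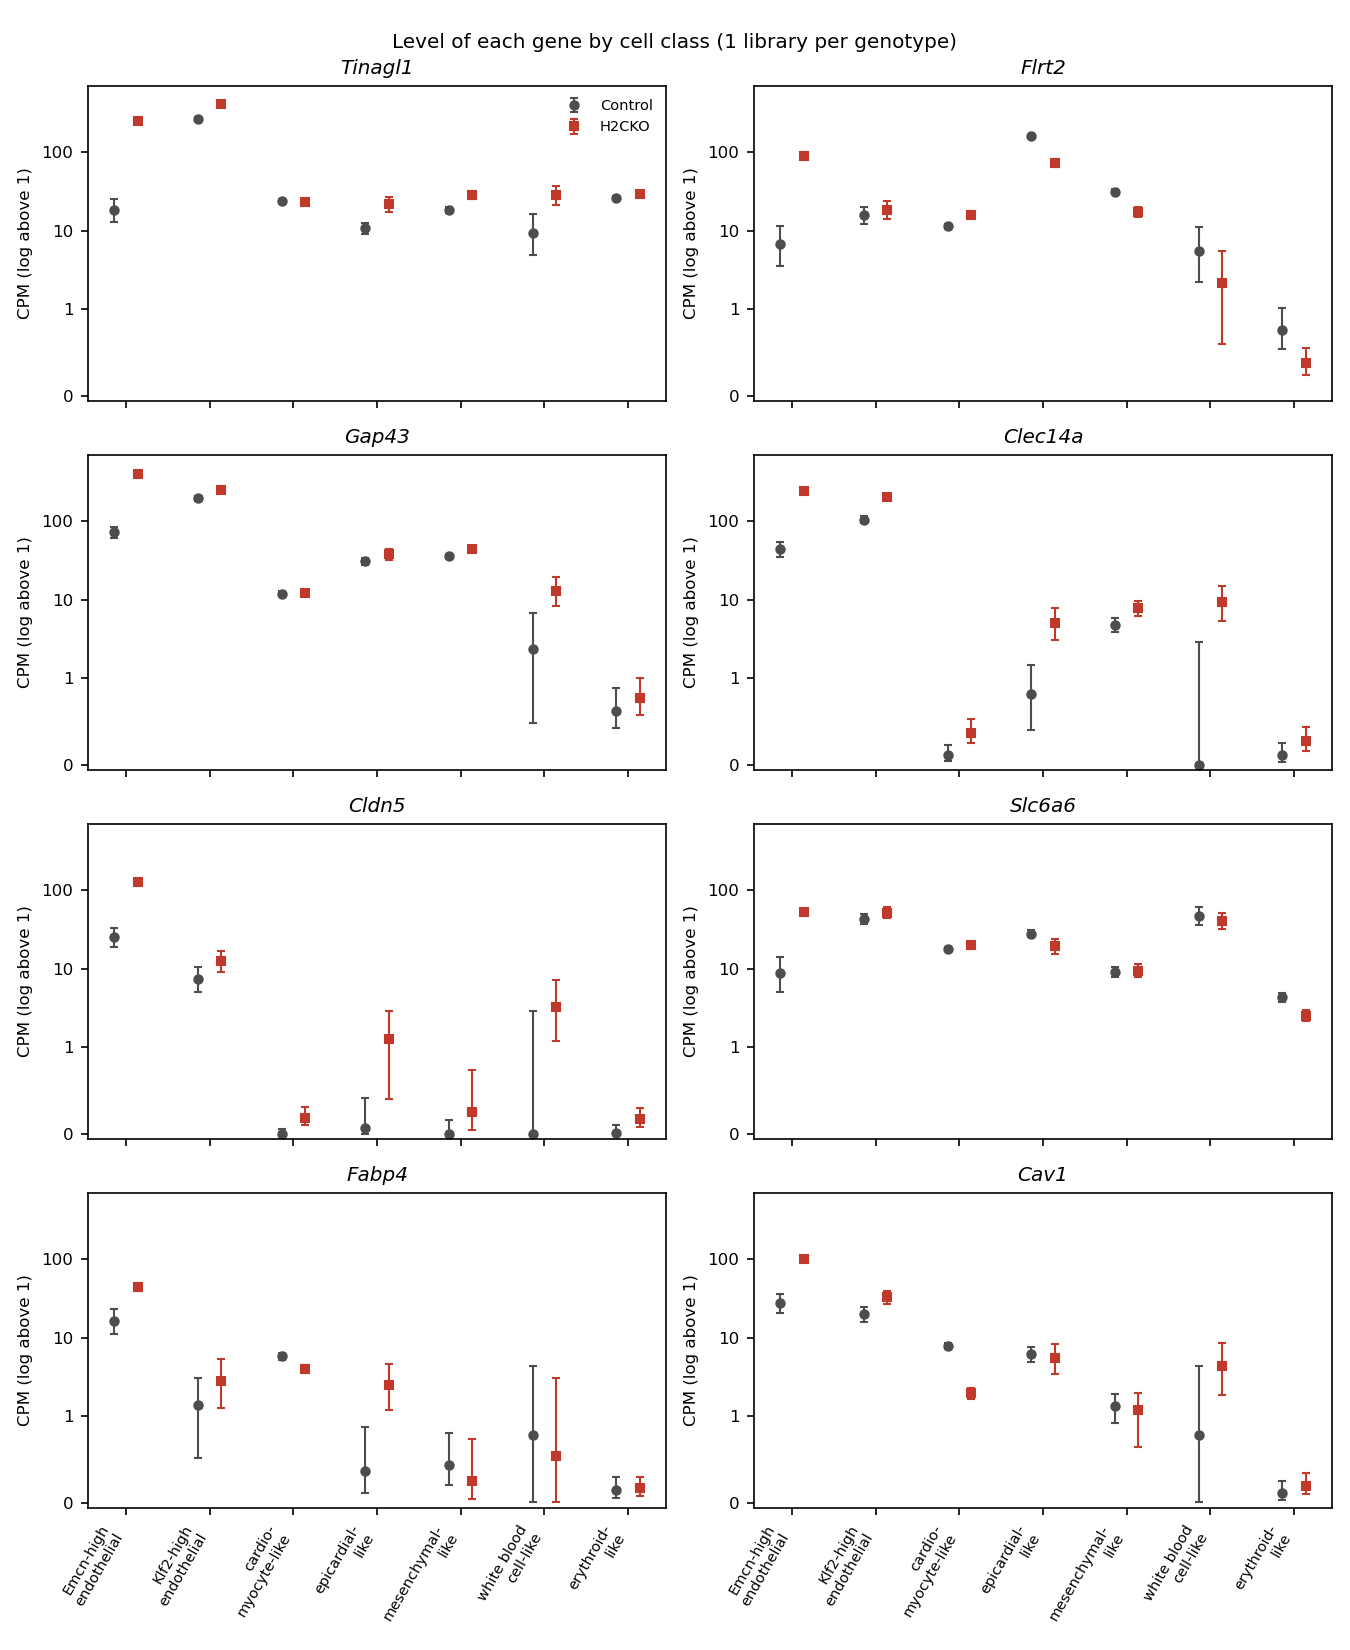
Level of each gene in 7 cell classes of the control (grey circles) and H2CKO (red squares) libraries, in CPM on an axis that is logarithmic above 1, with exact 95% Poisson intervals. The H2CKO point lies above the control point for all 8 genes in the Emcn-high cluster, while Flrt2 in epicardial-like cells (159 and 73.9 CPM) and Cav1 in cardiomyocyte-like cells (7.97 and 1.96 CPM) lie the other way.

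The Klf2-high cluster, the other endothelial population, showed smaller differences in the same direction. All 8 log2 ratios were above 0 there, beside a median of -0.24 for all genes tested. Of the 5 members that could be tested there, 0 were past 2-fold in either direction, beside 0.623% of 6586 genes higher and 3.52% lower. Clec14a was nearest, with 105 CPM (95.7 to 115) against 205 CPM (189.5 to 221) and a log2 ratio of 0.93. Tinagl1 stood at 269.6 and 417 CPM (0.62), Cav1 at 20.2 and 33.0 CPM (0.59), Gap43 at 196 and 248 CPM (0.33) and Slc6a6 at 43.4 and 52.2 CPM (0.24). Of these 5, the interval of the fold included 1 only for Slc6a6 (0.968 to 1.49). They ranked from 50th (Clec14a) to 899th (Slc6a6) among the genes tested. Flrt2, Cldn5 and Fabp4 stayed at or below 18.5 CPM in both libraries and were not tested. With no doublet removal (log2 ratio 1.01), or with ratios centred on the median gene (1.17), Clec14a was past 2-fold in this cluster. With the median ratio of the reference classes taken off, the log2 ratio was 0.54 for Clec14a, 0.11 for Tinagl1 and 0.05 for Gap43. A difference between the clusters in the size of the change was not tested.

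The order of the 2 clusters differed between the libraries for some genes. In the control, Tinagl1 was 14.5-fold higher in the Klf2-high than in the Emcn-high cluster (10.4 to 20.8), and in H2CKO 1.66-fold higher (1.54 to 1.78). The Emcn-high cells of H2CKO held 0.934-fold the Tinagl1 of control Klf2-high cells (0.865 to 1.01), an interval that includes 1. For Slc6a6 the Klf2-high over Emcn-high fold was 4.95 (3.01 to 8.67) in control and 0.995 (0.821 to 1.20) in mutant cells, and H2CKO Emcn-high cells held 1.21-fold the level of control Klf2-high cells (1.01 to 1.45). The other 6 genes stood further above the control Klf2-high level. Gap43 was 2.06-fold that level, Clec14a 2.30-fold, Cav1 4.95-fold, Flrt2 5.75-fold, Cldn5 17.1-fold and Fabp4 31.9-fold (6 control UMIs). Gap43, Clec14a and Flrt2 were thus higher in Klf2-high cells within the control and higher in Emcn-high cells within H2CKO.

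When both clusters were summed, 6 of the 8 genes were past 2-fold higher (0.869% of 6558 genes were, and 7.72% were past 2-fold lower). Tinagl1 (log2 ratio 0.67) and Slc6a6 (0.61) were not. The share of Emcn-high cells among endothelial cells differed between the libraries, so the sum moves with that share as well as with the levels. With the median ratio of the cardiomyocyte-, epicardial- and mesenchymal-like classes taken off, 4 of the 8 were past 2-fold in the sum, Gap43 (0.86) and Clec14a (0.98) falling under the bound. The shares of 0.869% and 7.72% are for ratios before this step, so they are no background for the number after it.

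**Figure D2:**
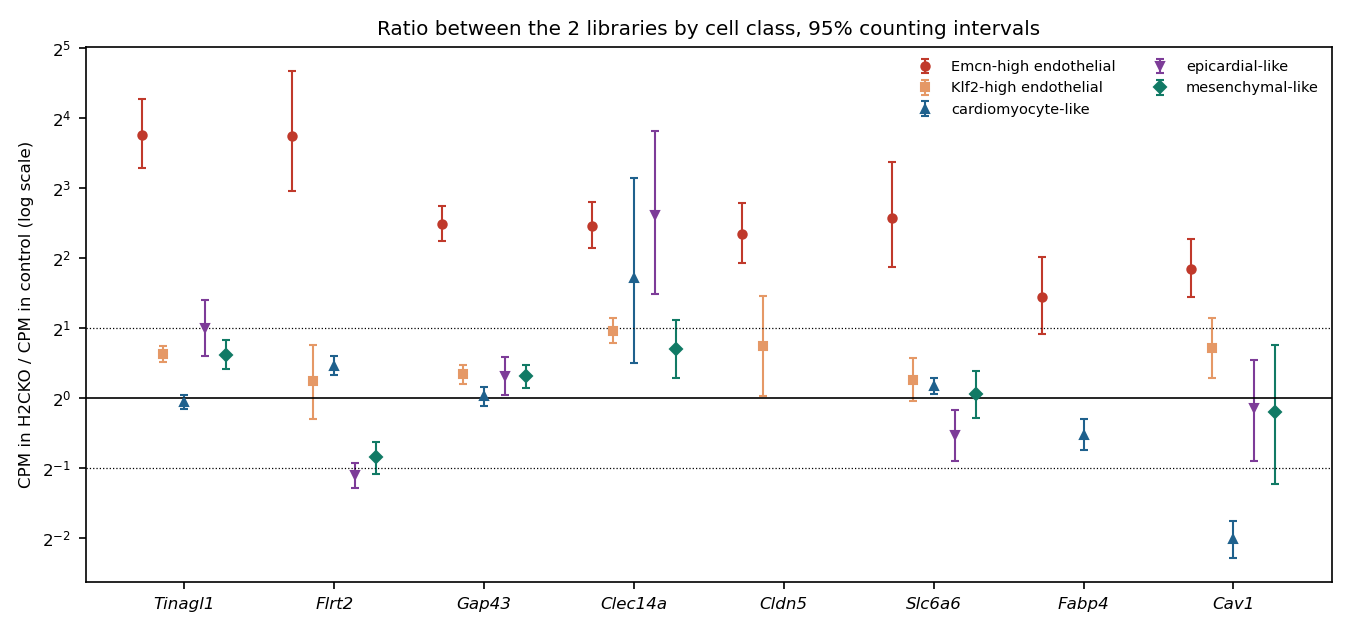
Ratio of CPM in H2CKO to CPM in the control on a log scale, with exact conditional 95% intervals, in the endothelial clusters and the cardiomyocyte-, epicardial- and mesenchymal-like classes, where a gene had at least 20 UMIs over both libraries. The dotted lines mark 2-fold in either direction. In the Emcn-high cluster all 8 genes lie above the upper line, Fabp4 nearest to it at 2.72-fold, and Cav1 in cardiomyocyte-like cells (0.246) and Flrt2 in epicardial-like cells (0.465) lie below the lower one. Clec14a in epicardial-like (6.11) and cardiomyocyte-like cells (3.28) and Tinagl1 in epicardial-like cells (2.01) also lie above the upper line.

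The control library shows where each gene is normally expressed. By class, 6 of the 8 genes had their highest control level in an endothelial cluster. Tinagl1 (269.6 CPM), Gap43 (196 CPM) and Clec14a (105 CPM) were highest in Klf2-high cells, and their next class stood at 26.5 CPM (erythroid-like), 72.4 CPM (Emcn-high) and 43.9 CPM (Emcn-high). Cldn5, Fabp4 and Cav1 were highest in Emcn-high cells. Cldn5 was nearly restricted to endothelium: outside the 2 clusters it had 2 UMIs in all named classes of the control. The intervals of Cav1 overlapped between the Emcn-high (20.96 to 36.4 CPM) and Klf2-high (16.1 to 24.9 CPM) clusters.

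Flrt2 and Slc6a6 had their highest control level elsewhere. Flrt2 was highest in epicardial-like cells, at 159 CPM (152 to 166), where 80.4% of cells had a UMI, and next in mesenchymal-like cells at 31.3 CPM. Slc6a6 was highest in white blood cell-like cells, at 47.8 CPM (36.6 to 61.4), which overlapped Klf2-high cells at 43.4 CPM (37.4 to 50.2). Counted by cluster, Fabp4 and Cav1 were highest in the control in cardiomyocyte-like clusters and not in endothelium. Fabp4 reached 32.4 CPM (28.8 to 36.3) in cardiomyocyte cluster 12, led by Rspo3 and Sema3c, against 16.5 CPM in Emcn-high cells. Cav1 reached 128 CPM (113 to 144) in cluster 20, led by Myl1 and Stard10, and 67.3 CPM in cluster 16, where Tbx3, a gene of the conduction system, was among the top genes, against 27.9 CPM in Emcn-high cells.

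Erythroid-like cells set Tinagl1 apart from the other genes. With each cell thinned to 5000 UMIs, 12.6% of control erythroid-like cells had a Tinagl1 UMI (1.75% for Slc6a6 and at most 0.457% for the other 6 genes). The median depth of these cells was 18307.5 UMIs, against 13551.5 in control Emcn-high cells. In the control Emcn-high cluster the thinned Tinagl1 share was 9.01% (4.41 to 15.9), an interval that holds the erythroid share, so the control share is not read as endothelial expression. The share was not even over the other classes, at 4.90% in epicardial-like cells and 0 of 61 white blood cell-like cells, and where these UMIs come from was not tested. In H2CKO Emcn-high cells it was 60.5% (55.8 to 64.99) beside 12.7% in erythroid-like cells.

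Outside endothelium the 8 genes did not share a direction. In epicardial-like cells Flrt2 was lower in H2CKO, at 159 and 73.9 CPM (fold 0.465, 0.410 to 0.525), and the fold was 0.520 (0.454 to 0.594) and 0.487 (0.342 to 0.682) in the 2 epicardial clusters taken singly. It was the only 1 of the 4 members tested there past 2-fold, with 4.82% of all genes past 2-fold lower and 1.25% higher. In mesenchymal-like cells Flrt2 stood at 31.3 and 17.4 CPM (fold 0.556). The fold was 0.416 (0.324 to 0.529) and 0.681 (0.542 to 0.850) in mesenchymal clusters 6 and 7, and 1.52 (0.590 to 4.36) in the small cluster 19, from 7 and 16 UMIs. In the class 0 of 3 members tested were past 2-fold (0.443% of genes were higher and 3.30% lower). Hand2 itself was lower there (184 and 54.2 CPM), and 35.6% of those H2CKO cells had a GFP UMI. The part of this in the Flrt2 difference was not tested. Tinagl1 was higher in both of these classes, at 10.8 and 21.7 CPM and at 18.5 and 28.5 CPM. In cardiomyocyte-like cells 0 of 2 members tested were past 2-fold, beside 0.162% of genes higher and 0.542% lower. The members tested were Tinagl1 (24.0 and 23.03 CPM, fold interval 0.896 to 1.03) and Slc6a6 (18.1 and 20.4 CPM, 1.04 to 1.21). Of those under the bound for testing, Gap43 (11.97 and 12.2 CPM) had a fold interval that includes 1, and Flrt2 (11.48 and 15.8 CPM) one above it (1.26 to 1.51). Clec14a, at most 7.80 CPM, was higher in cardiomyocyte-like (7 and 31 UMIs, fold 3.28, 1.42 to 8.82), epicardial-like (11 and 20, 6.11, 2.79 to 14.1) and mesenchymal-like cells (109 and 92, 1.63, 1.22 to 2.17). In epicardial-like cells Fabp4 (5 and 10 UMIs) and Cldn5 (1 and 5 UMIs) also had fold intervals above 1. Slc6a6 was lower there (fold 0.692, 0.535 to 0.887).

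Cardiomyocyte-like cells of the control held 7.97 CPM of Cav1 (7.28 to 8.72), and those of H2CKO 1.96 CPM (1.67 to 2.29), levels under the bound of 20 CPM for testing. Cluster 20, with 107 control cells and 4 H2CKO cells, held 270 of the 487 control UMIs. Without it the fold was 0.498 (0.402 to 0.616) in place of 0.246. Within cluster 20 the level was 128 and 130.1 CPM, the latter from 11 UMIs in 4 cells (fold 1.02, 0.502 to 1.85). In cluster 16 it was 67.3 and 28.8 CPM, a fold of 0.427 (0.319 to 0.570). The Fabp4 of cluster 12 stood at 32.4 and 34.3 CPM, a fold of 1.06 whose interval (0.896 to 1.25) includes 1. In white blood cell-like cells 1 of 2 members tested, Tinagl1, was past 2-fold (9.40 and 28.4 CPM), beside 1.37% of genes higher and 7.70% lower. Under the bound for testing, Clec14a had 0 and 17 UMIs there and Gap43 3 and 24 (fold 5.58, 1.69 to 28.9). In erythroid-like cells 1 member, Tinagl1, was tested and was not past 2-fold (26.5 and 29.4 CPM), beside 0.349% of genes higher and 7.67% lower.

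The GFP reporter took no part in the choice of the genes and splits the H2CKO cells by whether Cre had visibly acted. Among Emcn-high cells of H2CKO, 269 had at least 3 GFP UMIs, 190 had 0 and 28 had 1 or 2. None of the 8 genes differed by 2-fold between the first 2 groups, where 0.0363% of 5514 genes were past 2-fold higher and 0.0181% lower. Tinagl1 was 278 CPM with GFP and 217 CPM without (fold 1.28, 1.15 to 1.43). Gap43 was 406 and 399.5 CPM (1.02, 0.934 to 1.11), and Cldn5 was 124 and 135 CPM (0.918, 0.791 to 1.07). Both groups stood above the control interval for each of these genes. Flrt2 (1.22), Clec14a (1.13), Slc6a6 (1.17) and Cav1 (1.06) lay in the same range.

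The summed level of Fabp4 differed more, lower in cells with GFP at 29.7 CPM (24.5 to 35.8) than in those without at 53.2 CPM (43.9 to 63.9), a fold of 0.559 (0.427 to 0.732). The share of cells with a Fabp4 UMI was close in the 2 groups, 30 of 269 (11.2%) and 21 of 190 (11.1%), and 1 cell without GFP held 37 of that group's 114 UMIs. The 28 cells with 1 or 2 GFP UMIs held 57 Fabp4 UMIs, 28 of them in 1 cell and all in 5 cells. These levels thus rest on a few cells, which the intervals leave out. Against all control cells of the cluster, the cells without GFP were past 2-fold for 8 of 8 genes (1.39% of genes) and those with GFP for 7 of 8 (1.53%), Fabp4 having a log2 ratio of 0.69. Hand2 was low in both groups, at 20.1 CPM without GFP and 8.50 CPM with it, beside 172 CPM in the control. A cell with no GFP UMI is thus not shown to have kept Hand2. The endocardial gene Npr3 stood at 76.5 and 85.2 CPM.

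In the Klf2-high cluster 213 H2CKO cells had at least 3 GFP UMIs and 35 had 0, so that side is thin. Of 5 members tested, 1 was past 2-fold higher with GFP, Slc6a6 (55.4 and 24.6 CPM, fold 2.26, 1.01 to 6.24), beside 9.62% of genes higher and 0.772% lower. Against all control cells, 0 of 5 members tested were past 2-fold with GFP (0.744% of genes) and 0 of 4 without (0.808%). Over both clusters together, 1 of the 8 was past 2-fold, Fabp4, lower with GFP (18.4 and 47.8 CPM), beside 0.0873% of genes lower and 1.66% higher. That sum mixes the clusters, and Klf2 differed by 2.67-fold between its sides. Against all control cells in the sum, 5 of 7 members tested with GFP (0.807% of genes) and 6 of 8 without (1.32%) were past 2-fold higher.

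**Figure D3:**
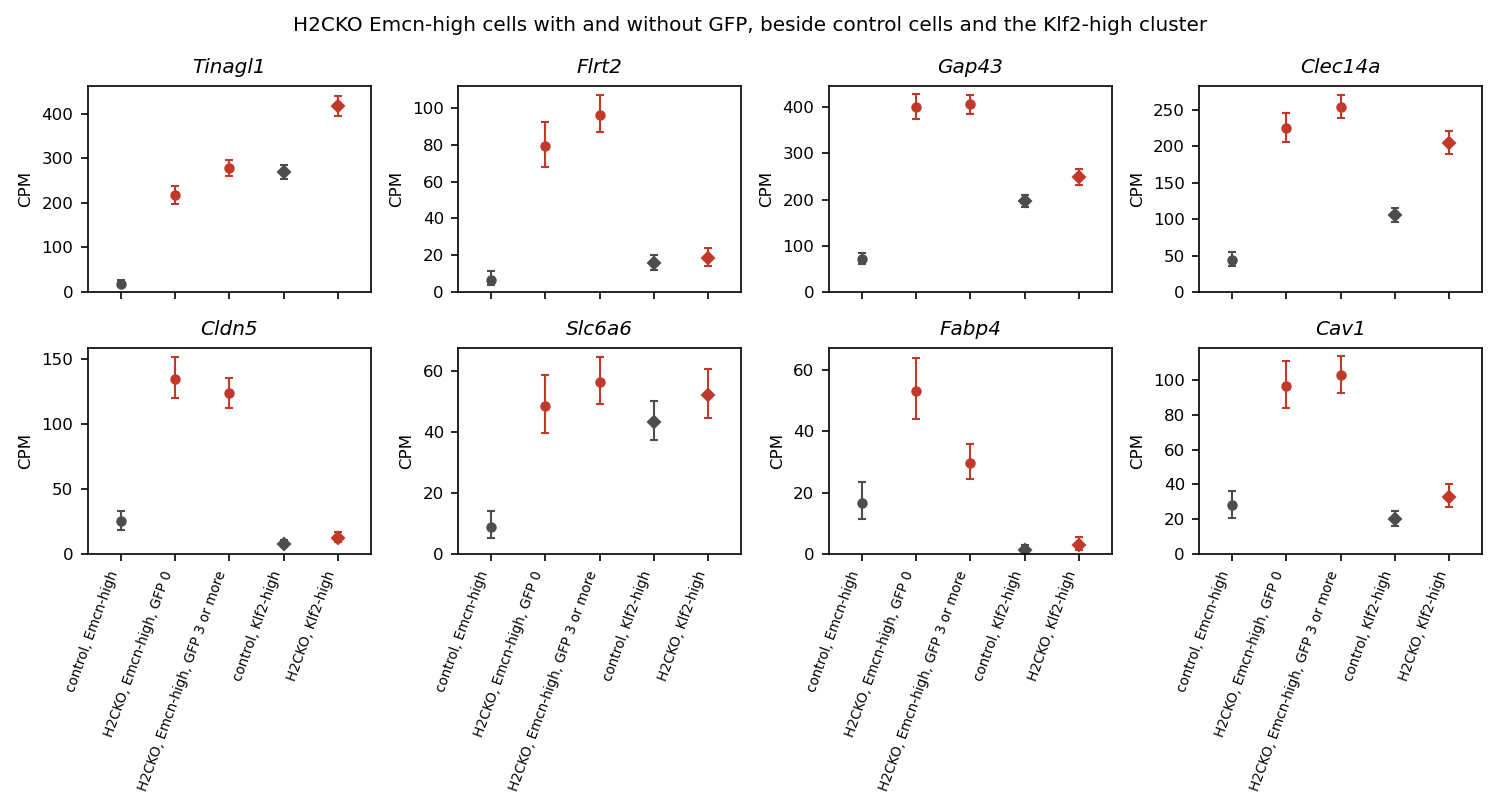
CPM of each gene in Emcn-high cells of the control, in H2CKO Emcn-high cells with 0 and with at least 3 GFP UMIs, and in Klf2-high cells of both libraries, with exact 95% Poisson intervals on linear axes from 0. The GFP groups lie close together and above control Emcn-high cells, with Fabp4 lower in cells with GFP (29.7 and 53.2 CPM).

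Endocardial genes differed between the libraries in the Emcn-high cluster. The 12 endocardial markers summed to 3367 CPM in control and 1203 CPM in H2CKO Emcn-high cells, all 12 having a UMI in each. Single cells ranged from 116 to 6410 CPM in the control and from 0 to 4695 CPM in H2CKO. The 12 mesenchymal markers summed to 843 CPM (0 to 3370 per cell, Prrx1 at 0) and 234 CPM (0 to 2647, none at 0). The 18 vascular and coronary markers summed to 2726 CPM (762 to 11068) and 2255 CPM (314 to 9339), with Mfsd2a at 0 in both. Most of that sum was Fabp5 (1400 and 1020 CPM) and Plvap (567 and 480 CPM), so it does not speak for the whole list. Within the list Sox17 was higher in H2CKO (18.6 and 93.3 CPM) and Unc5b lower (17.6 and 3.65 CPM). The 10 erythroid markers summed to 22538 CPM (1990 to 253678) and 40960 CPM (1855 to 406066), and the 12 cardiomyocyte markers to 1187 (328 to 10711) and 1512 CPM (0 to 15556). Median depth was 13551.5 and 10729 UMIs per cell, with medians of 3896 and 3035 genes and 3.55% and 4.96% mitochondrial UMIs. The same sums also differed in the Klf2-high cluster, where 0 members were past 2-fold, with 2826 and 1832 CPM of endocardial, 2775 and 918 CPM of mesenchymal and 13112 and 50774 CPM of erythroid markers. The part of these in the differences was not tested.

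A split by Npr3 and Nfatc1, genes of the endocardium, was added after seeing these values. In cells with a UMI of either (103 control, 321 H2CKO), all 8 genes were past 2-fold higher (1.80% of 6342 genes were). Tinagl1 stood there at 11.3 and 249 CPM, Gap43 at 42.8 and 384 CPM, and Cldn5 at 15.8 and 109 CPM. Fabp4 stood at 7.88 and 35.0 CPM. Cells with neither gene numbered 17 in the control and 166 in H2CKO, and there 4 of 7 members tested were past 2-fold (11.2% of 3147 genes were). In those, Gap43 (406 and 465 CPM), Cldn5 (133 and 184 CPM) and Cav1 (50.7 and 91.5 CPM) had fold intervals that include 1, and Fabp4 was 114 and 73.2 CPM. Flrt2 (0 of 13 control UMIs, and 88.4 CPM in H2CKO), Clec14a (50.7 and 237 CPM) and Tinagl1 (101 and 259 CPM) were higher in H2CKO here too. Slc6a6 was 25.4 and 56.1 CPM, from 4 control UMIs, with an interval that includes 1 (0.835 to 8.29).

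Those 17 control cells carried much of the control signal of some genes. They were 14.2% of the control Emcn-high cells and held 8.15% of their UMIs, yet 56.2% of the Fabp4, 45.7% of the Gap43, 44.4% of the Tinagl1 and 42.9% of the Cldn5 UMIs. For Clec14a the share was 9.41% and for Flrt2 it was 0 of 13 UMIs. In H2CKO the 166 cells held 26.0% of all UMIs and between 23.8% (Cav1) and 42.4% (Fabp4) of each gene's UMIs. Npr3 itself was 483 CPM in the control and 80.4 CPM in H2CKO, so the split sorts the cells of the 2 libraries differently.

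**Figure D4:**
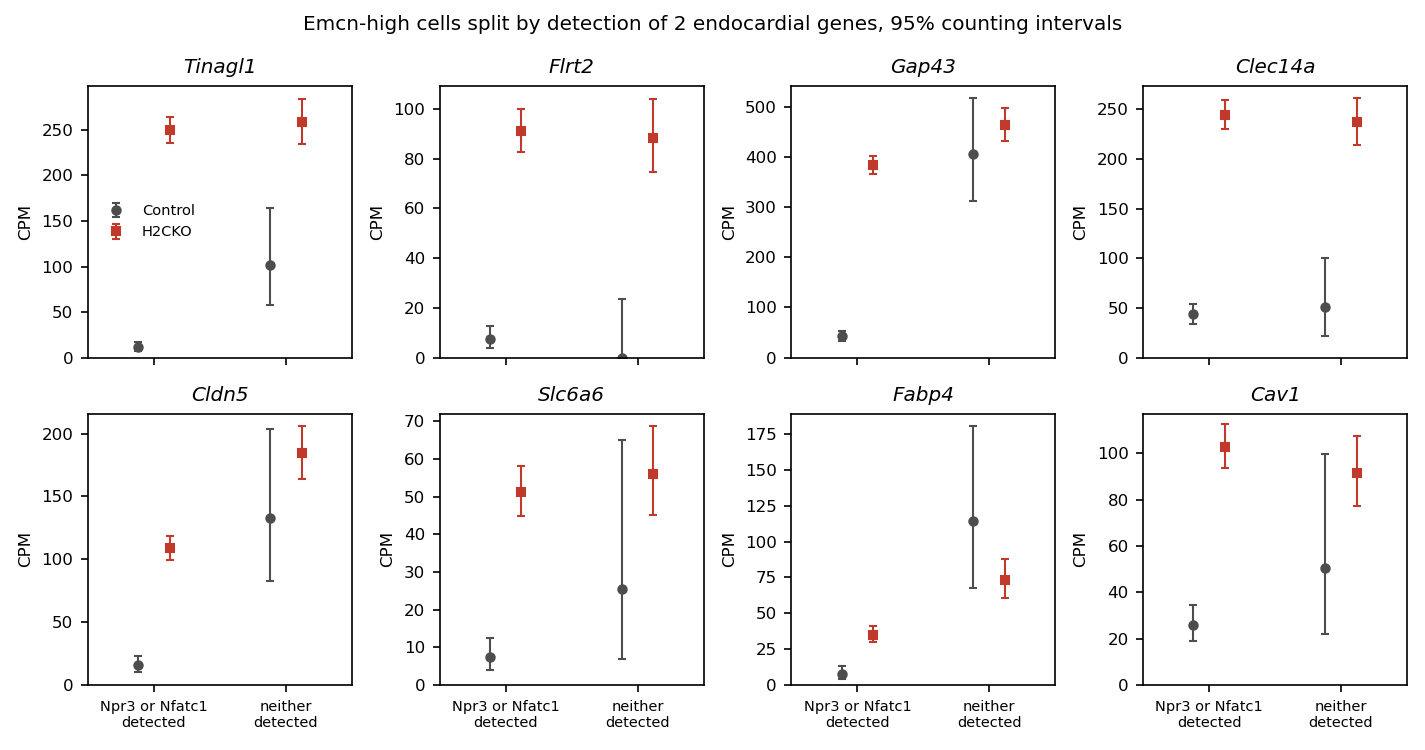
CPM of each gene in Emcn-high cells with a UMI of Npr3 or Nfatc1 (103 control and 321 H2CKO cells) and with neither (17 and 166 cells), with exact 95% Poisson intervals on linear axes from 0. In cells with neither gene, the control and H2CKO intervals overlap for Gap43, Cldn5, Slc6a6, Fabp4 and Cav1, and they do not for Tinagl1, Flrt2 and Clec14a.

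Per cell, the genes were spread over the H2CKO cells and were sparse in the control. After thinning to 5000 UMIs, a control Emcn-high cell had a UMI of a median of 0 of the 8 genes, and 52.3% of 111 cells had none. In H2CKO the median was 3, 1.75% of 458 cells had none and 48.5% (43.8 to 53.2) had at least 4, against 4.50% (1.48 to 10.2) in the control. Klf2-high cells had medians of 1 in the control and 2 in H2CKO. The thinned share of cells with Gap43 was 17.1% and 78.2%, with Clec14a 20.7% and 64.6%, and with Cldn5 9.01% and 42.6%. Shares for Flrt2 were 2.70% and 34.7%, for Slc6a6 2.70% and 21.4%, and for Cav1 13.5% and 37.3%. The control shares of Flrt2 and Slc6a6 rest on 3 cells each and move with the draw. A second draw at the same depth gave each of them a UMI in 4 of 55 control cells with Hand2 and 2 of 56 without. In erythroid-like cells no share but that of Tinagl1 passed 1.75%. Unthinned, the Gap43 share was 25.8% and 91.0%.

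Fabp4 had another pattern. It had a UMI in 5.41% of thinned control cells (2.01 to 11.4) and 6.77% of thinned H2CKO cells (4.64 to 9.47), although its level was 2.72-fold higher. Its UMIs came from few cells: in H2CKO the 5 highest cells held 43.8% of 283 UMIs, and in the control 90.6% of 32. For the other 7 genes the 5 highest H2CKO cells held between 5.25% (Gap43) and 10.3% (Cldn5). Unthinned, 8 of 120 control and 56 of 487 H2CKO Emcn-high cells had a Fabp4 UMI.

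**Figure D5:**
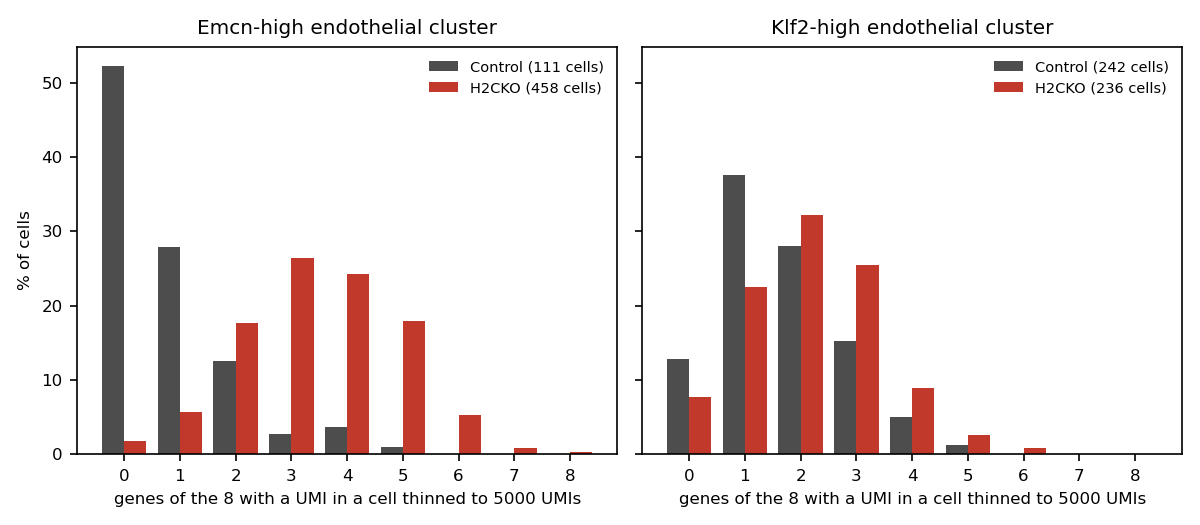
Share of cells (in %, bars from 0) by the number of the 8 genes with a UMI, after each cell was thinned to 5000 UMIs, in the Emcn-high and Klf2-high clusters of the control (grey) and H2CKO (red). The control Emcn-high cells peak at 0 genes (52.3%) and the H2CKO cells at 3, while the 2 libraries lie closer in the Klf2-high cluster.

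Whether the genes sit in the same cells was read within each library, as the number of the 28 pairs detected together more often than the product of the 2 detection rates. Over both endothelial clusters this held for 19 of 28 pairs in 353 control cells (median observed over expected 1.32) and 21 of 28 in 694 H2CKO cells (1.08). Within H2CKO Emcn-high cells it held for 19 of 28, but the median ratio was 1.04, so most pairs were close to independent detection. Tinagl1 and Gap43 were found together in 230 cells where 216.5 were expected, and Clec14a and Cldn5 in 127 where 126 were expected. The pairs share cells and depth, and no test was made of these counts.

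Fabp4 again stood apart, and so did Cldn5 with it. In H2CKO Emcn-high cells, 26 of the 31 cells with Fabp4 also had Cldn5, where 13.2 were expected (ratio 1.97, the highest of the 28). That was the only pair there whose exact binomial interval lay above the expected share. Fabp4 was found with Cav1 in 5 cells (11.6 expected, the lowest ratio at 0.432) and with Flrt2 in 5 cells (10.8 expected, 0.465). Flrt2 and Slc6a6 shared 44 cells (34.0 expected, 1.29). In the control the numbers were small. All 6 control cells with Fabp4 had Gap43 (1.03 expected), 4 of the 6 had Cldn5 (0.541 expected), and 6 of the 10 cells with Tinagl1 had Gap43 (1.71 expected).

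Other genes of the same pathways moved in both directions in the Emcn-high cluster. Of 6 other caveola genes tested, 1 was past 2-fold higher, the coat protein gene Cavin3 (147 and 583 CPM, log2 ratio 1.95), and 0 lower. Of 8 junction genes, occludin (Ocln, 1.55 and 20.5 CPM, 1.96, from 3 control UMIs) was higher and 3 were lower: the scaffold genes Cgnl1 (368 and 112 CPM, -1.67) and Tjp1 (250.1 and 109 CPM, -1.16), and Pecam1 (416 and 203 CPM, -1.02), an adhesion molecule of all endothelium. In the reference classes the median log2 ratio of Cgnl1 was -1.03, that of Tjp1 -0.74 and that of Pecam1 -0.11, while Cavin3 had 0.48 and Ocln 0.02. These counts stand beside 1.45% of all genes higher and 8.51% lower.

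Of 10 basement membrane genes tested, 0 were past 2-fold higher and 5 lower, unlike Tinagl1. The 4 with the largest ratios were Lamc1 (96.6 and 31.1 CPM, log2 ratio -1.49), Nid1 (230.0 and 87.1 CPM, -1.35), Col4a1 (973 and 383 CPM, -1.33) and Col4a2 (472 and 201 CPM, -1.21). These encode laminin, nidogen and collagen IV chains. In the reference classes their median log2 ratios were -0.75, -0.71, -0.49 and -0.68. Among 3 tested genes of the list of Clec14a-related lectins and multimerins, the multimerin Mmrn1 was just past the bound (7.75 and 20.7 CPM). Of 9 growth-cone genes 0 were higher and 1, Dpysl2 (102 and 47.2 CPM, log2 ratio -1.04), lower, beside -0.97 in the reference classes. Of 3 fatty acid genes 0 were higher and 1, Acsl3 (38.2 and 13.2 CPM, log2 ratio -1.25), lower, beside -0.53 there. Of 3 FLRT partners and 3 taurine genes tested, 0 were past 2-fold. In the Klf2-high cluster, over the lists other than junction genes, 0 genes were past 2-fold higher and 5 were lower: Unc5c (log2 ratio -1.29), Lamc1 (-1.21), Dpysl2 (-1.13), Nid1 (-1.12) and Acsl3 (-1.08). The ratio of Unc5c in the reference classes was -1.10.

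Across 14 levels (7 classes in 2 libraries), the profile most like the mean of the 8 genes belonged to Onecut2 (Pearson r 0.960 among 8562 genes). Rgs16 (0.952), Sox17 (0.938), Ecscr (0.921), Oit3 (0.921), S100a16 (0.916), Car8 (0.914) and Ocln (0.913) followed. Sox17, a transcription factor of arterial and coronary endothelium, stood at 18.6 and 93.3 CPM in Emcn-high cells and at 39.9 and 33.6 CPM in Klf2-high cells. S100a16 stood at 49.1 and 186 CPM in Emcn-high cells. Among the 8 themselves, r with the mean of the other 7 ran from 0.396 (Flrt2) and 0.543 (Slc6a6) to 0.953 (Cav1). The points share libraries and depth, and the likeness is a description. They include the endothelial levels of both libraries by which the 8 genes were chosen. The likeness among the 8, and to other genes with a high ratio there, thus follows in part from that choice.

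Genes other than the 8 overlap some of them in the GENCODE annotation of GRCm38, and the files do not say how such reads were assigned. Flrt2 (chromosome 12, 95692226 to 95785215, plus strand) overlaps 2 genes on its strand, Gap43 (chromosome 16, 42248442 to 42340651, minus) overlaps Mir6540, Slc6a6 (chromosome 6, 91684053 to 91759066, plus) overlaps 3 genes and Cav1 (chromosome 6, 17306335 to 17341452, plus) overlaps Gm15581 on the other strand. Tinagl1 (chromosome 4, 130164454 to 130175122, minus), Clec14a (chromosome 12, 58264720 to 58269290, minus), Cldn5 (chromosome 16, 18776847 to 18778262, plus) and Fabp4 (chromosome 3, 10204088 to 10208576, minus) overlap none.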

How the data were processed

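Whole E11.5 hearts were measured as 1 control and 1 H2CKO single-cell library. The authors deposited raw UMI counts per gene and barcode, made with Cell Ranger 5.0.1 on GRCm38.p6 per the submitters' processing notes, which also name Seurat 4. How barcodes were called, and with which gene annotation, is not given in the sources used here. The authors also deposited embedding coordinates (a score with no unit), of which the list of barcodes served for 1 alternative and the coordinates were not used.

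Cells under 500 genes or over 10% mitochondrial UMIs were left out. Scrublet doublet calls removed 1048 control cells (10.6%) by its automatic threshold. In H2CKO that threshold marked 0 cells, so the 608 highest scores (5.01%) were removed. Cells were clustered with scanpy 1.11.5 and leidenalg 0.10.2 (2000 variable genes without the 8 members, 30 components, resolution 1) and named from marker lists. UMIs were summed per class and library. The log2 ratio was taken of CPM plus 5, and a gene with at least 20 CPM and 20 UMIs in the higher library was tested, meaning compared with a 2-fold bound. With 1 library per group there is no p-value. Intervals are exact at 95% (Poisson for levels, Clopper-Pearson for shares, conditional binomial for folds) and cover counting error only. Reads are not independent of the cells they come from, which these intervals leave out. Shares of cells were compared after thinning to 5000 UMIs, each comparison resting on 1 random draw.

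Named genes are the 8 members, Hand2 and GFP, up to 4 genes per related list that were past 2-fold in an endothelial cluster, the 8 genes of most similar profile, and cluster-defining or marker genes where a result needs them. Mmrn1 and Anxa2, next to the 2-fold bound, Npr3, Nfatc1, Klf2, the Adgrl genes, Unc5a and Unc5b were named after their values were seen. The members and lists were chosen with earlier results of these data known. The ratio step was tested on simulated data: of 100 genes changed 4-fold and 100 changed 0.25-fold, it called 100 and 100 in the Emcn-high cluster (5691 genes tested) and as many in the Klf2-high cluster (6303 genes). The simulated counts had no variation between cells, and genes of low level were not changed. A 4-fold change was thus nearly sure to pass the 2-fold bound, and the check covers the arithmetic only. Alternatives covered cell filters, doublets, cluster resolution, naming by cell, pseudocount, minimum level, centring, thinning and the GFP bound. The junction genes of the Klf2-high cluster are not reported here.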

Additional observations from a re-analysis of the deposited data

Results flagged for a closer look

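Some genes that were higher in H2CKO Emcn-high cells were lower in H2CKO in another class. These differences between classes were not tested. Flrt2 had a fold of 0.465 in epicardial-like, 0.556 in mesenchymal-like and 0.498 in erythroid-like cells, the last from 39 and 26 UMIs. Slc6a6 had a fold of 0.692 in epicardial-like and 0.582 in erythroid-like cells. Fabp4 had a fold of 0.695 in cardiomyocyte-like cells and Cav1 one of 0.246.

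Cluster 15 stayed unnamed and enters no comparison. It held 321 control and 60 H2CKO cells, with epicardial markers highest and few UMIs per cell. In its H2CKO cells Tinagl1 stood at 86.2 CPM (11 UMIs, control 9.90 CPM), Gap43 at 141 CPM (18 UMIs, control 46.2 CPM) and Clec14a at 39.2 CPM (5 UMIs, control 3.30 CPM). Cldn5 and Fabp4 each stood at 62.7 CPM from 8 UMIs, beside 1 and 2 UMIs in the control. Flrt2 went the other way, with 22 control UMIs and 1 in H2CKO.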

How the results depend on the processing

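No paired analysis was possible because each genotype is 1 library. The number of members past 2-fold higher in the Emcn-high cluster was 8. With at least 100 CPM required it was 4, which were all the members still tested, so the lower number comes from the filter. In cells with neither Npr3 nor Nfatc1 it was also 4, beside 11.2% of genes, and Fabp4, not tested there, turned to a log2 ratio of -0.61. The splits by Npr3 and Nfatc1, and the GFP groups against all control cells, were added after seeing the data. In the Klf2-high cluster the number was 0, and 1 with no doublet removal or when centred on the median gene (log2 ratio -0.24). Over both clusters it was 6, and 2 at 100 CPM, where only Tinagl1, Gap43 and Clec14a were tested. For GFP over both clusters the number past 2-fold in either direction was 1, and 0 with GFP counted from 1 UMI or with thinned cells. Genes called higher in the Emcn-high cluster numbered 92 of 6335 tested, and 156 with thinned cells, 180 when centred and 33 at 100 CPM. Thinning and the bound of 100 CPM also change how many genes are tested, while centring and taking off the reference classes do not. In the Klf2-high cluster the genes called higher numbered 41 of 6586 tested, and 87 when centred, 15 less the reference classes and 18 at 100 CPM. Over both clusters they numbered 57 of 6558, and 127 when centred and 24 at 100 CPM. In the Klf2-high cluster, ratios under 2-fold turned negative for Flrt2 (-0.18, stricter cell filter), Cldn5 (-0.30, thinned cells) and Fabp4 (-0.08, deposited embedding barcodes only). Counting as stable a count within 1.5 times the main one and a ratio within the main value's counting interval, 58 counts and 302 ratios were stable. Of the other ratios 41 lay outside that interval, and 1 past 2-fold, the Fabp4 value above, changed sign. The depth of 17 control cells limits the split without Npr3 and Nfatc1, and the 6 and 9 UMIs of Fabp4 limit it in the Klf2-high cluster.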

Other observations

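Genes tested in the Emcn-high cluster differed by the length of their span in the genome. The median log2 ratio was 0.03 for the 2111 genes of shortest span, which include Tinagl1, Clec14a, Cldn5 and Fabp4, and -0.57 for the 2111 of longest span, which include Flrt2, Gap43 and Slc6a6. Past 2-fold higher were 2.27% of the shortest, 1.04% of the middle group (with Cav1) and 0.995% of the longest.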
